A study of Homo sapiens with 10 samples.

Results

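OVMANA and OVTOKO, lines used as models of ovarian clear cell carcinoma, were compared with OVKATE, COV362 and COV504, which are used as models of high-grade serous carcinoma. These 5 of the 10 libraries of the series were chosen by line name. The labels give the cell line, the instrument and the molecule (total RNA) but no tumour type, so the sides are called clear cell and serous-like from what is known of the lines. Every line had 1 library, all 5 were untreated as far as the labels say, and all were sequenced as long reads on the PromethION, a nanopore instrument. The series holds 7 ovarian cancer lines and was made to benchmark the quantification of transcripts. SK-OV-3 and IGROV-1, also run on the PromethION, are mentioned only beside single results. Genes and transcript shares are described for which both lines of a side lay beyond all 3 lines of the other.

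Clear cell carcinoma of the ovary is thought to arise from endometriosis. It is known for cytoplasm filled with glycogen, for frequent loss of the chromatin remodelling subunit ARID1A and for signalling through IL6 and STAT3. High-grade serous carcinoma arises mostly from the epithelium of the fallopian tube and often expresses WT1 and the oestrogen receptor. After DNA damage, cells switch on a set of genes that halt the cell cycle, repair DNA or lead to cell death.

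Library totals were 1871485 and 1729782 counts in OVMANA and OVTOKO and 2021865, 2552499 and 2247659 counts in OVKATE, COV362 and COV504. Genes with at least 1 count numbered 13176 and 13517 on the clear cell side and 14823 to 15524 on the serous-like side. Both the totals and these numbers were lower on the clear cell side. Mitochondrial ribosomal RNA took 1.58% to 3.31% of the counts. Levels are given in CPM (counts per 1000000 counts of the library). They are not divided by length, so they are compared between lines and never between genes.

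Of 10869 genes that passed the expression filter, 1094 (10.1%) had both clear cell lines above all 3 serous-like lines and 2229 (20.5%) had both below. For a gene without any difference between the sides, the probability is 0.1 in each direction. Of the genes whose sides did not overlap, 32.9% thus lay above. This split depends on the scale: with TMM factors, which adjust the library totals for composition, the numbers were 1531 and 1731, and 46.9% lay above. The median log2 difference over all genes tested was -0.07 with TMM, and scaling by totals alone moved it by -0.19. Without OVMANA or OVTOKO the numbers were 2296 and 2254 above and 3922 and 3833 below, since a single line then stands for the side. Without OVKATE, COV362 or COV504 the numbers were 1861, 1488 and 1602 above and 2798, 3302 and 3080 below. With fewer lines, non-overlap is more frequent also where the sides do not differ. Asking that the nearest lines of the sides lie at least 2-fold apart left 255 genes above and 576 below, and thinning every library to the smallest total left 1059 and 2109.

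edgeR's quasi-likelihood test with Benjamini-Hochberg adjustment called 0 of the 10869 genes (0%) at an adjusted p under 0.05. The lowest adjusted p was 0.069. At an unadjusted p under 0.05 there were 1344 genes (12.4%), 600 higher and 744 lower in the clear cell lines, and limma-voom also called 0. DESeq2 called 224 genes higher (2.06%) and 322 lower (2.96%), and 537 of these 546 were genes whose sides did not overlap. The residual in these fits is the spread between lines of a side, and the biological coefficient of variation was 58.9%. With 2 lines against 3, an exact permutation test of a single gene cannot go below p = 0.1 (one-sided). Genes were picked here because their sides do not overlap in these same libraries, so their levels are a description. No gene is said to have risen or fallen.

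Across the tested genes the rank correlation (Spearman) was 0.792 between OVMANA and OVTOKO, 0.76 to 0.828 between the serous-like lines and 0.659 to 0.734 between lines of different sides. The pairs share genes and libraries, and depth differs between them, so these values only describe the 5 libraries.

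Some markers of clear cell carcinoma were higher in both OVMANA and OVTOKO than in every serous-like line, and others were not. Of the 10 clear cell markers on the list, 2 are counted together with a neighbouring gene under a joined identifier. Of the others 6 passed the filter, and 4 of these had both clear cell lines above (10.1% of all tested genes did). The filter was given the sides, so a gene with counts in the 2 clear cell lines alone can pass, as HAVCR1 did. NAPSA, high in OVMANA alone, did not pass. DESeq2 called the same number higher (2.06% of all tested genes were). SPP1, which encodes the secreted phosphoprotein osteopontin, was at 16460.7 and 7190.5 CPM in OVMANA and OVTOKO and at 8.9, 250 and 23.6 in the serous-like lines (log2 difference 7.02 ± 1.61, SE). For ANXA4, a calcium-dependent membrane-binding protein linked to clear cell tumours, the levels were 798.3 and 1960.4 against 79.6, 125.0 and 175.7 CPM (log2 difference 3.60 ± 0.65). The kidney injury molecule HAVCR1 had 5.9 and 10.4 CPM and no count in any serous-like line, at least 18.5-fold higher against a floor of 3 counts over those lines. The markers did not all mark both lines. NAPSA, which encodes the aspartic protease napsin A, stood at 1739.3 CPM in OVMANA and at 0.6 in OVTOKO, against 0 to 1.5 on the other side. TFPI2, an inhibitor of serine proteases, was at 2430.7 in OVMANA but at 19.1 in OVTOKO, below every serous-like line (20.8, 42.7 and 400.0). Glutaredoxin (GLRX) overlapped, at 21.4 and 40.5 against 15.3, 17.2 and 30.3, and the proteoglycan gene GPC3 had counts only in COV362 (1.6).

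Some serous markers separated OVKATE from the other lines, some separated the sides and others did neither. WT1, the transcription factor used in diagnosis, was at 76.2 CPM in OVKATE, at 0.4 in COV362 and at 0 in COV504. The kallikrein proteases KLK5, KLK6 and KLK7 were at 369.5, 1027.3 and 728.0 CPM in OVKATE and had no count in any of the other 4 lines. COV362 and COV504 thus had almost no WT1 and none of these kallikreins, but they did express other genes of the list. CLDN3 and CLDN4 were at 68.2 and 179.4 CPM in COV362 and at 121.9 and 42.7 in COV504. "Serous-like" is used below as the name of the side only. Of 14 listed genes 8 passed the filter, with both clear cell lines below in 2 (20.5% of all tested genes were) and above in 0. Without OVMANA the number below was 6 (3922 of all 10869 tested genes), and without COV504 it was 4 (3080 of 10869). The secreted protein HE4 (WFDC2) was at 0.5 and 0 CPM in OVMANA and OVTOKO and at 1013.4, 284.4 and 95.2 in OVKATE, COV362 and COV504, with a pooled ratio of 1578 in favour of the serous-like side (95% counting interval 283 to 62340). The oestrogen receptor ESR1 had no count in the clear cell lines and 15.3, 7.8 and 5.3 CPM in the others, at least 11.4-fold lower on the clear cell side with 3 counts over its libraries as the floor. The folate receptor FOLR1 and mesothelin (MSLN) were highest in OVKATE (2174.7 and 309.6) and next in OVMANA (778.0 and 207.3), and so overlapped. The mucin MUC16, the tumour antigen CA125, ran from 0 in OVTOKO to 57.4 in OVKATE, with OVMANA (13.4) between COV504 (11.6) and COV362 (17.2). The claudins CLDN3 and CLDN4 were lowest in OVTOKO (6.9 and 0.6) and highest in OVKATE (570.3 and 245.8). CDKN2A, the gene of the inhibitor p16, had no count in OVTOKO and COV504 and 127.6 to 434.5 CPM in the other 3 lines.

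All 5 lines expressed PAX8, the transcription factor of Mullerian epithelia. Its levels were 339.8 and 234.1 CPM in the clear cell lines and 173.6, 136.7 and 91.7 in the serous-like lines, a log2 difference of 1.29 ± 0.44. EMX2, a homeobox gene of the developing genital tract, had no count in OVMANA and OVTOKO and 49.5, 134.8 and 4.4 CPM in OVKATE, COV362 and COV504. These were the single members above and below among 6 of 10 Mullerian factors that passed the filter, beside 10.1% above and 20.5% below over all tested genes. Leaving out a line gave 1 to 3 above, the most without COV504 (1602 of all 10869 tested genes). It gave 1 or 2 below, with 2 without OVMANA, OVKATE or COV504 (3922, 2798 and 3080 of 10869). SOX17, another Mullerian factor, ran from 10.4 (OVTOKO) to 146.4 CPM (OVKATE), and its sides overlapped. MECOM (18.8 to 43.8), LHX1 (1.0 to 65.8) and HOXA10 (2.4 to 23.6) overlapped as well, and PAX2, HOXA11 and LHX9 were at most 6.2 CPM in any of the 5 lines.

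Among the 5 lines compared, OVTOKO stood apart in epithelial genes. The listed genes summed to 573.7 CPM in OVTOKO and to 2101.9 to 10242.6 CPM in the other 4. Outside the comparison they summed to 1284.3 CPM in SK-OV-3 and to 649.8 and 1464.0 CPM in IGROV-1. The adhesion gene EPCAM was at 8.7 CPM in OVTOKO and between 158.3 and 1813.5 in the other 4 lines. KRT19, a keratin of simple epithelia, was at 0.6 against 136.3 to 1833.3, and the epithelial splicing regulator ESRP1 had no count there. COV362 also had little CDH1 (E-cadherin), at 1.6 CPM beside 2.3 in OVTOKO and 59.2 to 214.3 in the other 3 lines. All 19 listed epithelial genes passed the filter. Both clear cell lines lay below in 2 (20.5% of all tested genes did), the keratin KRT8 and the transcription factor GRHL2, and above in 0 (10.1% of all tested genes did). GRHL2 had no count in the clear cell lines and 24.2, 0.4 and 8.9 CPM in OVKATE, COV362 and COV504, with 1 count in COV362. Without OVMANA 16 lay below (3922 of all 10869 tested genes) and without COV362 5 did (3302 of 10869). Without OVTOKO 4 lay above (2254 of 10869). Genes of leukocytes, endothelium, fibroblasts and mesothelium summed to 7.0 to 46.4 CPM in the clear cell lines and 16.9 to 75.2 in the others. Of those 18 genes 2 passed the filter, and CD3E and MS4A1 were at 0 in all 5 lines. All of these are libraries of cell lines. In bulk RNA of a line, fewer cells that express a gene and less RNA per cell cannot be told apart.

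**Figure D1:**
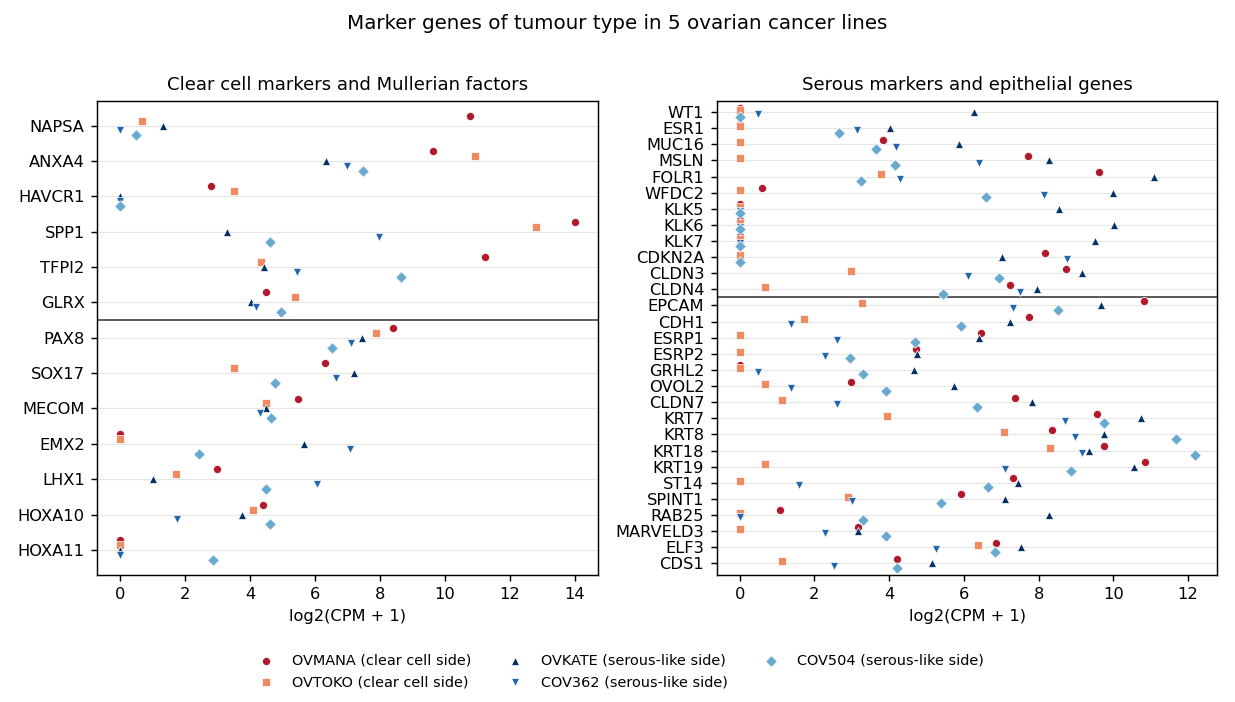
Levels of marker genes by line, as log2(CPM + 1), for members at 5 CPM or more in at least 1 of the 5 lines. Left: clear cell markers above the horizontal line, Mullerian factors under it. Right: serous markers above the line, epithelial genes under it. Each point is 1 library. ANXA4, HAVCR1 and SPP1 have both clear cell lines to the right, NAPSA only OVMANA, and KLK5, KLK6 and KLK7 only OVKATE. OVTOKO is at or near 0 in many epithelial genes, such as KRT19 at 0.6 CPM.

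Genes typical of the epithelia of kidney, liver and gut were examined as a list of 21. TM4SF4, a membrane protein of the tetraspanin-like L6 family, was at 18.7 and 198.3 CPM in OVMANA and OVTOKO and at 0.5, 0 and 0.4 in the serous-like lines. The pooled ratio was 358 (95% counting interval 98.4 to 2967). CYS1, which encodes the cilium protein cystin, was at 34.7 and 56.7 against 0.5, 2.7 and 0.4 CPM (log2 difference 5.24 ± 0.86). UGT2B7, a glucuronidation enzyme, was low everywhere, at 7.5 and 8.1 against 2.5, 3.9 and 0.4. These 3 lay above and 1 below among the 6 of 21 genes that passed the filter (10.1% and 20.5% of all tested genes). The one below was ANPEP, the aminopeptidase N of brush borders. It had no count in the clear cell lines and 276.5, 10.2 and 2.7 CPM in OVKATE, COV362 and COV504, or at least 116-fold lower against a floor of 3 counts over the clear cell lines. Without OVMANA 3 genes of this list lay below and without COV504 2 (3922 and 3080 of all 10869 tested genes). Another was in 1 clear cell line alone: DPP4, the dipeptidyl peptidase, was at 312.1 CPM in OVMANA with no count in OVTOKO. The genes of blood proteins made by liver, ALB, TTR, FGA, FGB and FGG, had no count in any of the 5 lines.

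The 12 protein-coding genes above with the smallest p had edgeR adjusted p values of 0.069 to 0.083 and were not called. SLC16A4, a transporter of the monocarboxylate family, was at 66.3 and 69.4 CPM in OVMANA and OVTOKO and at 0.5, 0 and 0 in OVKATE, COV362 and COV504. The carboxypeptidase M gene, whose symbol is CPM like the unit and whose enzyme trims peptides at the cell surface, was at 189.2 and 124.9 against 2.0, 0.8 and 0.4 (log2 difference 7.35 ± 0.64). The peptidylarginine deiminase PADI1, which converts arginine in proteins to citrulline, was at 52.9 and 99.4 against 0, 0 and 0.4. In all 3 genes each clear cell line stood far above every serous-like line, which had at most 4 counts of the gene.

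TM4SF18, a relative of TM4SF4, was at 129.8 and 151.5 CPM against 0, 0 and 0.9. DNAJC15, a mitochondrial cochaperone whose gene is known to be silenced by methylation in some ovarian tumours, was at 215.3 and 230.7 against 0, 0 and 1.8 CPM. KCNJ16, a potassium channel of kidney epithelium, was at 47.0 in OVMANA and 355.5 in OVTOKO, and at 0, 0 and 0.4 on the serous-like side. BARX1, a homeobox gene of the developing stomach, was at 86.0 and 21.4 against 0.5, 0 and 0. Every one of these was at or near 0 on the serous-like side, but not in every other line of the series: DNAJC15 was at 382.4 CPM in SK-OV-3 and 58.4 to 79.9 in IGROV-1, and KCNJ16 at 51.7 to 75.6 in IGROV-1.

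CD24, a surface glycoprotein of many carcinomas, was present in all 5 lines, at 3102.9 and 1714.1 CPM in OVMANA and OVTOKO and at 214.2, 168.9 and 152.2 in the others (log2 difference 3.94 ± 0.50). PRODH, the proline dehydrogenase of mitochondria, was at 25.1 and 27.7 against 0.5, 0 and 0.4 CPM, and reads may be shared with its near-identical copies. Of the remaining genes CDKN1A, a cell cycle inhibitor, and PPP1R3B, a glycogen regulator, are given with their groups. Among noncoding genes LINC02532 was at 33.7 and 16.8 CPM and CASC19 at 18.7 and 11, and neither had a count in any serous-like line.

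The 12 protein-coding genes below with the smallest p had adjusted p values of 0.069 to 0.079 by edgeR's quasi-likelihood test and were not called either. In 7 of them the clear cell lines had no count at all. CDH6, a cadherin of kidney and Mullerian epithelia, was at 1056.5, 359.6 and 405.3 CPM in OVKATE, COV362 and COV504, at least 729-fold lower in the clear cell lines with 3 counts over both as the floor (0.833 CPM). The N-cadherin gene CDH2 was at 92.0, 105.0 and 174.0, at least 148-fold lower. LINC00116, annotated here as protein-coding and known to encode the mitochondrial microprotein mitoregulin, was at 157.8, 137.1 and 135.3, at least 172-fold lower.

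KRT4, a keratin of stratified epithelia, was at 124.6, 68.2 and 177.5 CPM in the serous-like lines, BEX4 at 199.3, 108.5 and 77.9, the glycosyltransferase gene TMTC1 at 73.7, 69.7 and 65.8, and the MYC-interacting factor CDCA7L at 44.0, 56.8 and 40.5. Again no count stood on the clear cell side. TMTC1 and LINC00116 varied little among the serous-like lines, while CDH6 and BEX4 were highest in OVKATE. IGROV-1, which is outside the comparison, had no count of CDH6, BEX4, KRT4 or CDCA7L in either library.

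ASS1, the argininosuccinate synthase on which cells depend to make their own arginine, was at 5.9 and 5.8 CPM in OVMANA and OVTOKO and at 454.5, 166.5 and 254.0 in the others (log2 difference -5.40 ± 0.63). PYCARD, the adaptor of inflammasomes, was at 0.5 and 0 against 75.7, 59.9 and 81 CPM. REC8, a cohesin subunit of meiosis, was at 1.1 and 3.5 against 131.1, 84.2 and 101.9. The noncoding gene RMST had no count in the clear cell lines and 28.2, 13.3 and 7.6 CPM in the others, and LINC02482 was at 1.1 and 1.7 against 17.8, 16.8 and 14.2.

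UQCRH encodes the hinge subunit of respiratory complex III and lies at chr1:46303631-46316776. It was at 0.5 and 0 CPM in OVMANA and OVTOKO and at 1113.8, 698.1 and 436.9 in OVKATE, COV362 and COV504. With 1 count on the clear cell side, the pooled ratio was 2648 (95% counting interval 475 to 104600). The adjacent gene LRRC41, looked at after the values of UQCRH were seen, was at 4.8 and 12.7 against 49.5, 68.2 and 56.9, while NSUN4 on the other side of UQCRH overlapped between the sides (14.5 to 21.9 against 8.0 to 18.8). SK-OV-3 had no count of UQCRH and 2.5 CPM of LRRC41. A near-identical copy, UQCRHL, can share reads with UQCRH.

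**Figure D2:**
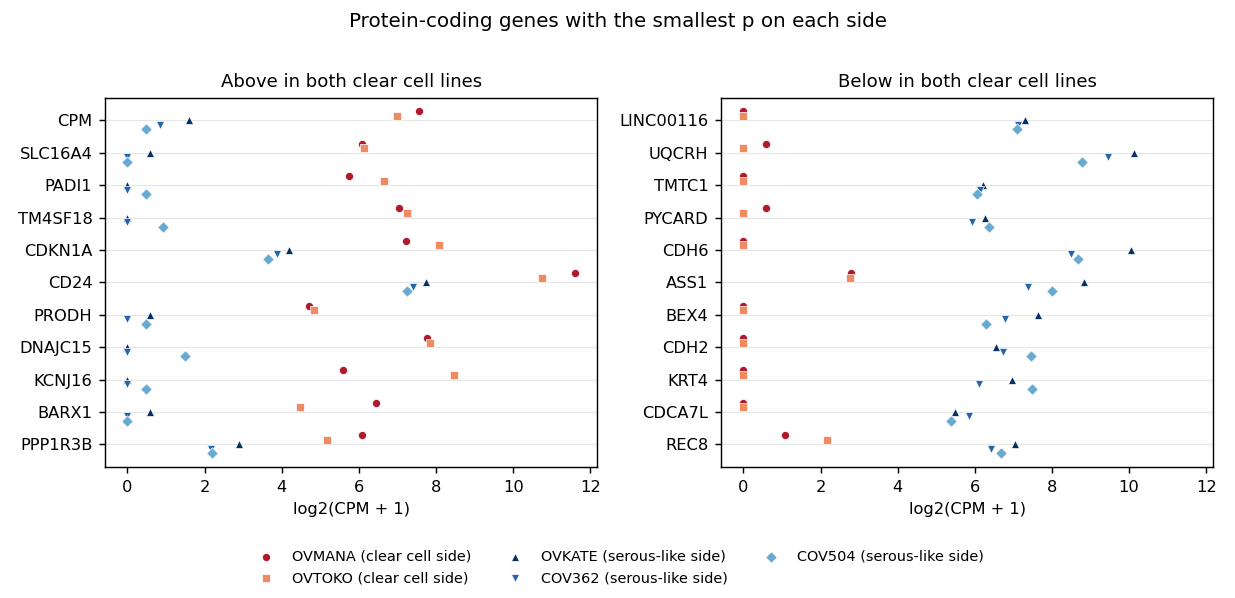
Levels of protein-coding genes above (left) and below (right) with the smallest p, as log2(CPM + 1). Each point is 1 library, and points of a gene are set apart vertically by line. The sides do not overlap because the genes were picked that way. SLC16A4 and DNAJC15 are near 0 on the serous-like side, while 7 genes on the right have no count in either clear cell line.

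Most genes of a list on arrest, repair and death of damaged cells were higher in both clear cell lines than in all 3 others. Of the 29 genes on the list all 29 passed the filter, 19 had both clear cell lines above all 3 serous-like lines (10.1% of all tested genes did) and 0 had both below (20.5% did). The median log2 difference was 1.66 beside -0.07 over all genes tested, 26 differences were positive, and DESeq2 called 8 higher (2.06% of all tested genes were) and 0 lower (2.96%). The number above was 19 with TMM factors and after thinning, and 20 to 23 when a line was left out, with up to 2 below. Over all 10869 tested genes, leaving out a line gave 1488 to 2296 above and 2798 to 3922 below.

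Among the genes that stop the cell cycle, CDKN1A, the gene of the inhibitor p21, was at 149.6 and 270.6 CPM in OVMANA and OVTOKO and at 17.3, 13.7 and 11.6 in OVKATE, COV362 and COV504 (log2 difference 4.08 ± 0.47, edgeR adjusted p = 0.069). Elsewhere on the list, the phosphatase gene PPM1D overlapped (15.0 and 15.0 against 10.2 to 21.8), as did GADD45A. IGROV-1 had 288.3 and 417.5 CPM of CDKN1A, and SK-OV-3 had 21.8, close to the serous-like lines.

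MDM2, a ubiquitin ligase, was at 161.9 and 58.4 CPM against 31.2, 20.4 and 26.7 (log2 difference 2.27 ± 0.53). Its locus (chr12:68808176-68850686, plus strand) overlaps that of the carboxypeptidase M gene (chr12:68842197-68971570, minus). Whether the 2 genes share reads was not tested. Among genes of cell death, BAX was at 155.5 and 108.7 against 38.6, 22.7 and 17.4, BBC3 (PUMA) at 14.4 and 30.6 against 7.4, 0.8 and 2.7, and the death receptor TNFRSF10B at 42.2 and 70.5 against 19.3, 20.4 and 14.7. The death receptor FAS was closer between the sides, at 62.0 and 40.5 against 5.9, 34.1 and 21.4. All of these lay above, and of the 5 the nearest lines were closest in FAS.

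The stress cytokine GDF15 was at 1607.8 CPM in OVMANA and 85.6 in OVTOKO, against 4.9, 12.9 and 16.0. The metabolic regulators SESN1 and SESN2 were at 20.8 and 45.7 and at 48.1 and 28.3, against at most 14.7 and 11.9. SPATA18 and EDA2R, both at 6.4 to 8.5 CPM in the clear cell lines, had 1 count each over the 3 serous-like libraries. The 10 genes that overlapped included PLK2, which was highest in COV504 (625.1 CPM), and RRM2B, which was highest in OVKATE (98.9).

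IL6 is a cytokine that acts through its receptor IL6R and the shared chain IL6ST on the kinase JAK1 and the transcription factor STAT3. IL6 was at 91.9 and 67.6 CPM in OVMANA and OVTOKO and at 0, 1.6 and 2.7 in OVKATE, COV362 and COV504 (log2 difference 5.87 ± 0.93). SK-OV-3 and IGROV-1 had no count of it. The receptor IL6R was at 73.2 and 29.5 against 1.0, 4.3 and 0.9 (4.69 ± 0.87), whereas IL6ST overlapped (42.7 and 77.5 against 40.6 to 115.7). JAK1 was at 109.0 and 118.5 against 50.4, 37.6 and 55.6, and STAT3 at 66.8 and 104.1 against 14.8, 20 and 26.2 (2.23 ± 0.49).

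The related cytokine LIF was at 56.1 and 72.3 against 46.0, 9.8 and 20.9 CPM, and the oncostatin M receptor OSMR at 112.7 and 95.4 against 2.0, 28.6 and 28.5. SOCS3, a feedback inhibitor and target of STAT3, was at 182.7 and 101.2 against 12.4, 35.3 and 42.7. Other targets went the other way: the kinase PIM1 was at 0 and 1.7 against 3.0, 10.6 and 12, and the inhibitor SOCS1 at 4.3 and 4.0 against 16.8, 6.3 and 12.9. The cytokines CXCL8 and CCL2 were highest in COV504 (138.4 and 383.5 CPM). Of 15 genes tested from a list of 16, 8 lay above (10.1% of all tested genes did) and 2 below (20.5%). BCL3 was just inside, at 20.8 in OVTOKO against 19.6 in COV504. DESeq2 called 5 higher (2.06% of all tested genes were) and 0 lower (2.96%). Leaving out a line gave 8 or 9 above and 2 to 4 below, with 4 below without OVTOKO or without OVKATE and 3 without COV362. Over all 10869 tested genes it gave 1488 to 2296 above and 2798 to 3922 below.

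**Figure D3:**
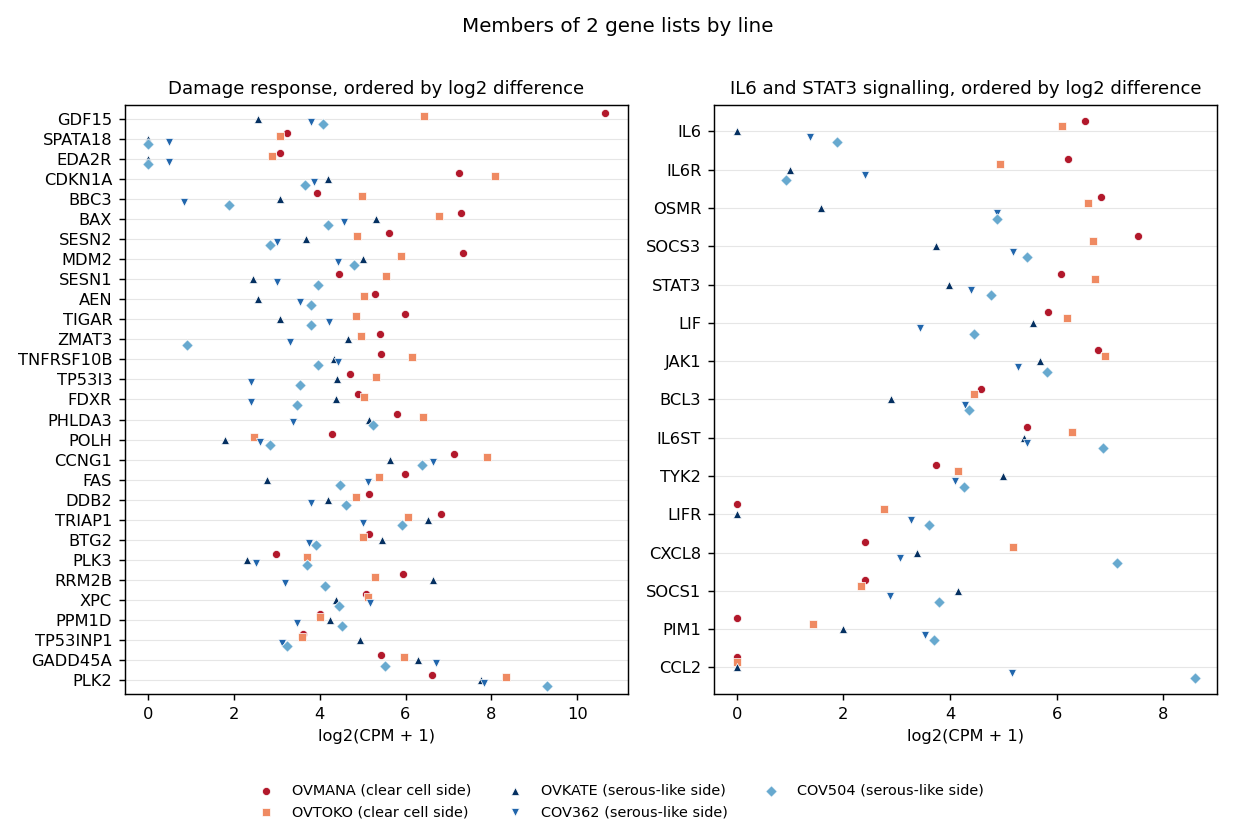
Levels of the 29 damage response genes (left) and the 15 tested genes of IL6 and STAT3 signalling (right) by line, as log2(CPM + 1), ordered by the log2 difference between the sides. Each point is 1 library. In 19 of the damage response genes and 8 of the signalling genes both clear cell lines lie to the right of all 3 serous-like lines.

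Glycogen is built by glycogen synthase and broken down by glycogen phosphorylase, and protein phosphatase subunits set the balance. PPP1R3B, the subunit that brings phosphatase to glycogen and favours its storage, was at 67.3 and 35.3 CPM in OVMANA and OVTOKO and at 6.4, 3.5 and 3.6 in the others (log2 difference 3.70 ± 0.52, edgeR adjusted p = 0.083). The synthase GYS1 was at 57.7 and 75.2 against 44.5, 5.5 and 17.4, and the phosphorylase PYGL at 282.7 and 227.8 against 18.8, 42.7 and 0. Genes of both synthesis and breakdown were thus higher on the clear cell side. G6PC3, a glucose-6-phosphatase, was the fourth member above (30.5 and 49.7 against 21.8, 22.3 and 17.8), and 0 lay below among 17 tested of 24 listed (10.1% above and 20.5% below over all tested genes). The branching enzyme GBE1 and the glycogenin GYG1 overlapped. Without OVMANA or without OVTOKO 8 lay above, with 2 and 4 below. Of all 10869 tested genes, 2296 and 2254 then lay above and 3922 and 3833 below.

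Of 23 genes of antioxidant defence tested from 25 listed, 6 lay above (10.1% of all tested genes did) and 2 below (20.5%), with a median log2 difference of 1.11 (-0.07 over all genes). The number below was 4 without OVMANA or without OVTOKO (3922 and 3833 of all 10869 tested genes). HMOX1, the haem oxygenase, was at 23.5 and 103.5 CPM against 8.4, 2.0 and 4.4 (log2 difference 3.93 ± 0.80). The mitochondrial superoxide dismutase SOD2 was at 119.2 and 751.0 against 46.0, 105.0 and 95.2, so OVMANA lay just above COV362. The glutathione reductase GSR was at 128.8 and 140.5 against 87.0, 49.4 and 41.8, and the sulfiredoxin SRXN1 at 95.1 and 105.2 against 55.4, 18.4 and 52.5. The peroxidase GPX1 and the peroxiredoxin PRDX1 were also above. Thioredoxin (TXN) and GPX8 lay below. Without OVMANA 16 antioxidant genes lay above (2296 of all 10869 tested genes), as OVTOKO then stands for the side. Why the number rose was not tested. Several were high in OVTOKO alone: the aldo-keto reductase AKR1C1 was at 779.3 CPM there and at 1.0 to 11 in the other 4 lines. GPX2, a glutathione peroxidase of gut epithelium, was at 1510.6 in OVMANA with no count in the other 4 lines.

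In coagulation and fibrinolysis 3 of 15 tested genes lay above (10.1% of all tested genes did) and 2 below (20.5%). PROCR, the endothelial protein C receptor, was at 140.0 and 106.9 CPM against 7.9, 23.5 and 20, and the urokinase gene PLAU at 57.2 and 509.9 against 14.8, 40.4 and 51.2. Tissue factor (F3) was high in OVTOKO (254.4) and COV504 (162.8) and overlapped. Coagulation factor XII (F12) was the other member above, though low (11.8 and 6.9 against 3.0, 6.3 and 0.9). Protein S (PROS1), at 3.2 and 1.7 against 62.8, 9.8 and 6.7, and F8 were below. Without OVMANA or without COV504 6 lay above (2296 and 1602 of all 10869 tested genes). Without OVTOKO or COV362 6 lay below (3833 and 3302 of 10869), and with TMM factors 1 did (1731 of 10869).

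SWI/SNF subunits form the chromatin remodelling complex to which ARID1A belongs. ARID1A RNA overlapped between the sides, at 46.5 and 26.6 CPM in OVMANA and OVTOKO and at 109.3, 45.1 and 51.6 in the others, and RNA levels do not show whether the protein is intact. Its relative ARID1B was at 18.2 and 19.7 against 34.6, 50.1 and 43.2, and the ATPase SMARCA2 at 10.7 and 5.2 against 30.7, 17.2 and 24.5. The tissue-restricted subunit SMARCD3 was at 0 and 1.7 against 32.1, 12.5 and 3.6, and BCL7C, another subunit, at 69.5 and 63.0 against 158.3, 112.4 and 178.9. Of 23 subunits tested from 27 listed 7 lay below (20.5% of all tested genes did), and 1, SMARCB1, lay above (10.1% did). The number above was 3 with TMM factors or without COV362 (1531 and 1488 of all 10869 tested genes). It was 4 without OVTOKO (2254 of 10869). Without OVTOKO 12 lay below (3833 of 10869). The median log2 difference of -0.16 was close to that of all genes.

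Mesenchymal genes that lay below were CDH2 and 3 genes of the extracellular matrix. SPARC, a collagen-binding matrix protein, was at 0 and 4.0 CPM in OVMANA and OVTOKO and at 843.3, 312.6 and 510.3 in the others (log2 difference -7.85 ± 1.30). COL5A1 had no count in the clear cell lines and 5.4, 55.6 and 121.0 CPM in the others, and COL1A1 was at 1.6 and 0 against 30.2, 4.3 and 81.4. These were the 4 below among 13 tested of 17 listed (20.5% of all tested genes lay below), and DESeq2 called all 4 lower (2.96% of all tested genes were). The matrix genes FN1, COL1A2, COL6A1, COL6A2 and TGFBI overlapped, with TGFBI at 152.0 CPM in OVTOKO against 13.8, 16.1 and 385.3 in the serous-like lines. The filament gene VIM also overlapped and was highest in OVTOKO (3662.9) and lowest in OVKATE (351.2). Without OVTOKO or without OVKATE 8 lay below (3833 and 2798 of all 10869 tested genes). Without OVMANA 3 lay above (2296 of 10869). Genes of S and M phase lay below in 10 of 21 tested (20.5% of all tested genes did). With TMM factors 4 did (1731 of 10869), so this count depends on the scale. The spindle checkpoint kinase BUB1B was at 16.0 and 13.3 against 57.4, 52.9 and 69.4 CPM (log2 difference -1.85 ± 0.44), and the replication licensing factor MCM2 at 44.3 and 42.8 against 108.8, 172.4 and 122.3. The mitotic cyclin CCNB2 was at 58.2 and 36.4 against 122.7, 170.4 and 194.9, and survivin (BIRC5) at 121.8 and 167.7 against 365.0, 221.0 and 313.7. Without OVMANA 2 proliferation genes lay above and without OVTOKO 4 (2296 and 2254 of all 10869 tested genes). MKI67, TOP2A and CCNB1 overlapped.

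**Figure D4:**
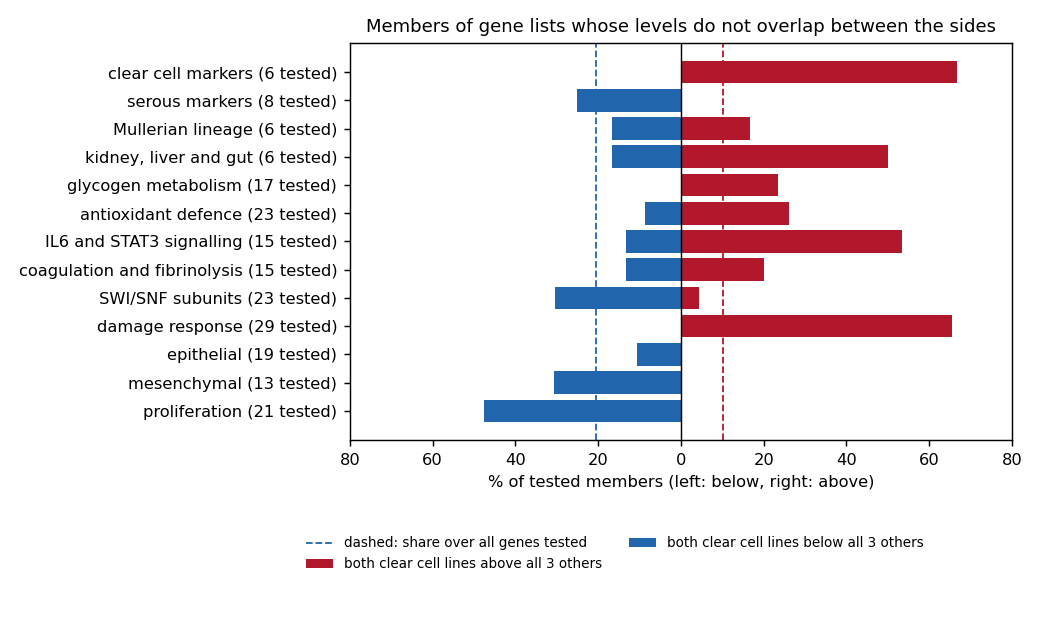
Share of the tested members of each gene list with both clear cell lines above (right) or below (left) all 3 serous-like lines, on levels scaled by library totals. Dashed lines show the shares over all genes tested, 10.1% above and 20.5% below. Bars of 8 of the 13 lists reach beyond the dashed line on the right and bars of 4 beyond that on the left. The longest on the right are those of clear cell markers and damage response, and that of proliferation on the left holds 10 of 21 genes, or 4 with TMM factors. Leaving out OVMANA moves the epithelial bar on the left from 2 to 16 genes. It moves the number below over all 10869 tested genes from 2229 to 3922.

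Long reads assign counts to whole transcripts, so the share of each transcript in the counts of its gene was compared next. Sequences of coding segments that set the transcripts of a gene apart are shown first, because the transcripts compared below differ in them. They come from GENCODE 29 on GRCh38, read 5′ to 3′ along the transcript. Capitals mark the segment found in only 1 of the pair, and lower case marks 12 bases of the neighbouring coding or transcript sequence on each side.
ECT2: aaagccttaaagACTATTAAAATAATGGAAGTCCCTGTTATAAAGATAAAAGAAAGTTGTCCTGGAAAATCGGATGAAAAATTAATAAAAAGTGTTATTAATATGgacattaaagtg
CSTF3: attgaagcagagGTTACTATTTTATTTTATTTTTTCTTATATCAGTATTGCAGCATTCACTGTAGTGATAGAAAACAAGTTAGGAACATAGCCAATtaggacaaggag
VPS29: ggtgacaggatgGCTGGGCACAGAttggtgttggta
BIN1 upstream exon: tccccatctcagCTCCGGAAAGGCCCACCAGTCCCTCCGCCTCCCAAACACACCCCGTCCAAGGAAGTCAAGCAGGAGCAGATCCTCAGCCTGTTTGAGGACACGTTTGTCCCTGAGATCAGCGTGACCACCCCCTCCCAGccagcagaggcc
BIN1 downstream exon: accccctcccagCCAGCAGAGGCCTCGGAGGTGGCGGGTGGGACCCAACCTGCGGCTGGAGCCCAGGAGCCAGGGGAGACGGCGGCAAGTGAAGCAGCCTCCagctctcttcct
SPATA20: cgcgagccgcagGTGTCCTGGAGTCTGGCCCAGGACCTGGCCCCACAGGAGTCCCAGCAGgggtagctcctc
FLNA: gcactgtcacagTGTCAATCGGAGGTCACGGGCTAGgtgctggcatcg
CSNK1A1: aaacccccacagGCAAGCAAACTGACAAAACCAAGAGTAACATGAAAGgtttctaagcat
EXOC7: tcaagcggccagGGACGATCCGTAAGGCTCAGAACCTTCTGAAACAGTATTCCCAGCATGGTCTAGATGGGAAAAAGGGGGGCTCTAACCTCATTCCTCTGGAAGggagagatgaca
The segments of ECT2 (chr3:172755483-172755575, plus strand, 93 bases), BIN1 (chr2:127057473-127057601 and chr2:127051154-127051243, minus, 129 and 90 bases) and SPATA20 (chr17:50547720-50547767, plus, 48 bases) are exons of the transcript with the larger share in the clear cell lines. Those of VPS29 (chr12:110499535-110499546, minus strand, 12 bases, 4 residues), FLNA (chrX:154357251-154357274, minus, 24 bases, 8 residues), EXOC7 (chr17:76091143-76091235, minus, 93 bases) and CSNK1A1 (chr5:149505447-149505482, minus, 36 bases, part of an exon) belong to the transcript with the smaller share there. All of these lengths are multiples of 3. FLNA and EXOC7 lie outside the rule for named transcripts and were chosen after their values were seen. In CSTF3 the 84 bases (chr11:33141583-33141666, minus) are the coding end of a short transcript that runs on past an exon boundary.

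Shares were examined for 5108 transcripts of 2538 genes with at least 50 counts in each of the 5 libraries, at least 2 transcripts and a share of at least 5% in at least 1 line. Both clear cell lines were above all 3 others in 653 (12.8%) and below in 601 (11.8%). As for genes, the probability without any difference between the sides is 0.1 in each direction. In 51 transcripts (0.998%) the nearest lines of the sides lay at least 10 percentage points apart with the clear cell lines above, and in 47 (0.92%) with them below. The 51 and 47 belonged to 64 genes, of which 32 had a transcript on each side. Just inside the margin was ABHD12 ENST00000376542 (14.7% and 14.6% against 24.7% to 47.0%), and just outside it GTF3C1 ENST00000561623, whose nearest lines were 9.997 points apart.

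The test of transcript usage, for which edgeR's diffSpliceDGE took transcripts in place of exons, called 0 of 2900 genes (0%). At an unadjusted p under 0.05 there were 56 of the 2900 genes, a smaller share than the 0.05 that evenly spread p-values would give. The counterpart in limma called 0. Without OVMANA 1 identifier was called, the joined one of CRIP1, AL928654.4 and C14orf80 (adjusted p = 0.0049 against 1 with all 5 lines and edgeR), where OVTOKO had 28 counts. The genes with the smallest p were the joined SYS1, SYS1-DBNDD2 and DBNDD2 (adjusted p = 0.53 by edgeR), ELP5, the joined HOGA1, AL355315.1 and PI4K2A, TGIF1 and TPM4. The shares below are therefore descriptions of the 5 lines. Shares of the 50-count genes carry 95% Wilson intervals that cover counting error only. They leave out the spread between libraries of the same line, which lines with 1 library each cannot show.

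ECT2 is the exchange factor that activates RhoA at the site of cell division. The transcript ENST00000392692, which includes the 93-base exon, took 71.4% and 70.7% of ECT2 counts in OVMANA and OVTOKO and 29.2%, 11.9% and 24.9% in OVKATE, COV362 and COV504. The transcript without it, ENST00000232458, took 24.9% and 23.6% against 64.7%, 81.1% and 72.5%. The sides were 41.6 and 39.9 points apart, the widest in each direction among genes with an identifier of their own, on 88 to 322 counts per line. In OVTOKO, the shallowest, the interval of the first share was 60.2% to 79.0%, and in OVKATE it was 24.5% to 34.4%. IGROV-1 had 95.6% and 97.4% of the longer form, beyond both clear cell lines.

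CSTF3 encodes a subunit of the cleavage stimulation factor, which helps to cut pre-mRNA before its tail is added, and its short form is known to end inside an intron. The full-length ENST00000323959 took 89.8% and 76.7% in OVMANA and OVTOKO and 41.2%, 30.8% and 27.6% in the others. The short ENST00000438862 took 10.2% and 15.0% against 54.8%, 63.2% and 64.8%. The full-length form was the main one in both clear cell lines and the short form in the other 3, on 60 to 117 counts per line. The intervals of the full-length share were 64.6% to 85.6% in OVTOKO and 30.4% to 52.0% in OVKATE. The forms differ in length (2797 and 1132 nt), and the part of read length in the shares was not tested.

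VPS29 is a subunit of retromer, the complex that returns proteins from endosomes. The transcript without the 12-base exon, ENST00000549578, took 92.4% and 87.8% in OVMANA and OVTOKO and 54.9%, 31.4% and 50.6% in the others, on 287 to 477 counts per line. Its partner ENST00000360579 took 6.5% and 11.2% against 43.0%, 65.1% and 47.7%. This gene had the deepest coverage of the pairs described so far, with intervals of 83.5% to 91.1% in OVTOKO and 50.4% to 59.3% in OVKATE.

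BIN1 encodes a membrane-bending adaptor of the amphiphysin family with many tissue forms. ENST00000393040, with both exons printed above, took 67.3% and 69.3% in OVMANA and OVTOKO and 38.4%, 31.2% and 26.4% in the others. ENST00000348750, with neither, took 10.7% and 8.4% against 36.8%, 35.9% and 45.0%. The rest of BIN1 counts fell on other transcripts. SK-OV-3 and IGROV-1, at 75.7% to 83.7% for the first, lay with the clear cell lines.

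ENST00000356488 of SPATA20, without the 48-base exon, took 15.6% and 16.0% against 44.1%, 44.1% and 45.1%. In FLNA, the actin crosslinker filamin A, ENST00000369856 with the 24-base exon took 49.4% in OVMANA and 24.9% in OVTOKO against 65.8% to 68.2%, so the clear cell lines differed from each other more than the serous-like lines did. In the kinase gene CSNK1A1, ENST00000261798 without the 36 bases took 74.4% and 80.4% against 57.3%, 54.3% and 53.4%, and ENST00000377843 with them took 19.5% and 18.2% against 37.8%, 42.9% and 44.8%.

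EXOC7 encodes a subunit of the exocyst, which tethers secretory vesicles. ENST00000589210, with the 93-base exon, took 4.9% and 2.3% in OVMANA and OVTOKO and 53%, 17.6% and 19.3% in OVKATE, COV362 and COV504. OVKATE stood apart from the other serous-like lines, and IGROV-1 was at 3.5% and 2.6%.

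Wide gaps were also found in INF2, CAST and CD46. The formin INF2, an actin assembly factor, had 25.9% and 27.5% of ENST00000617571 against 65.3%, 59.3% and 65.7%. In CAST, the inhibitor of calpain proteases, ENST00000309190 took 63.3% and 56.6% against 25.3%, 31.8% and 26.6%. CD46, a regulator of complement, had 55.1% and 48.0% of ENST00000354848 against 31.0%, 16.6% and 18.4%. The sides of all 3 were at least 16.9 points apart. The 2 PromethION libraries of IGROV-1, a single line, were at 23.4% and 2.0% for the INF2 transcript. They were at 65.4% and 45.5% for that of CAST and at 39.5% and 38.7% for that of CD46.

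In FDPS, the farnesyl diphosphate synthase of the mevalonate pathway, ENST00000467076 took 51.7% and 58.2% against 32.7%, 32.3% and 32.4%, a difference of 22.5 points between the means, and ENST00000447866, with the same coding sequence, 30.5% and 15.9% against 55.5%, 54.5% and 49.0%. ENST00000392061 of CEBPZOS took 56.0% and 57.4% against 34.9%, 17.6% and 22.2%, and its other form has the same coding sequence. ENST00000374704 of the cyclin gene CCNY took 52.6% and 37.9% against 81.9%, 77.5% and 82.1%. The dyskinesia gene PNKD had 71.6% and 68.9% of ENST00000248451 against 95.5%, 90.1% and 94.9%. The complex I subunit NDUFC1 had 35.1% and 34.6% of ENST00000539387 against 66.2%, 63.7% and 73.2%, on 462 to 1006 counts. ASPH, an aspartate hydroxylase of the endoplasmic reticulum, had 66.8% and 58.5% of ENST00000356457 against 37.9%, 32.1% and 37.4%, and BAG6, a chaperone, 43.9% and 60.7% of ENST00000211379 against 7.9%, 23.0% and 18.6%. The 2 PromethION libraries of IGROV-1 differed widely in some of these shares, at 24.1% and 54.7% for NDUFC1 and 37.6% and 65.1% for CCNY. In others they lay close together, at 48.3% and 46.3% for ENST00000467076 of FDPS, 85.9% and 83.5% for PNKD and 36.3% and 36.9% for BAG6.

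Of the 32 genes with a transcript on each side, 26 have an identifier of a single gene. Their pairs differed in coding sequence in 21, used first exons that do not overlap in 9 and last exons that do not overlap in 4. In 14 pairs the first and last exons both overlapped. Of these, the pairs of ECT2, VPS29, BIN1, SPATA20 and EXOC7 differ by whole coding exons inside the transcript. The other 6 of the 32 are joined identifiers, in which a share can move with the level of another gene. In the joined SYS1, SYS1-DBNDD2 and DBNDD2, ENST00000243918 took 92.5% and 88.9% against 28.3%, 53.8% and 59.5%.

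**Figure D5:**
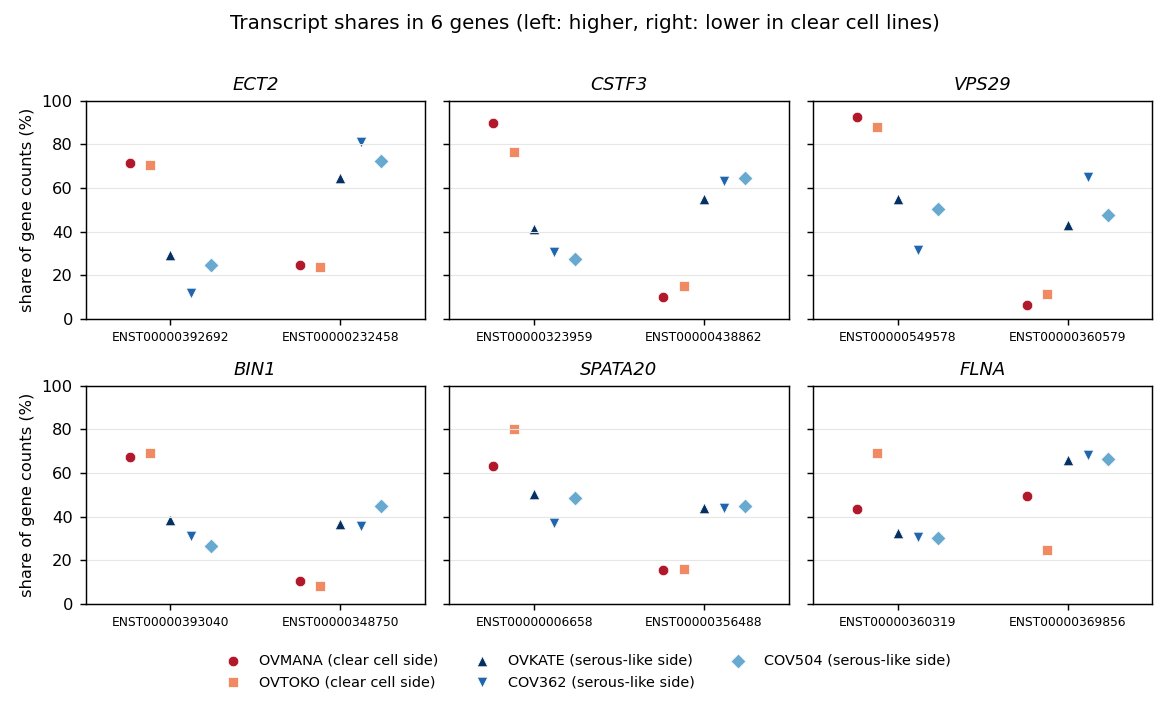
Share of the gene's counts (%) taken by 2 transcripts in each of 6 genes, by line. In each panel the left transcript is higher and the right one lower in the clear cell lines, and each point is 1 library. In ECT2 the shares are 71.4% and 70.7% against 11.9% to 29.2% on the left, and in FLNA the clear cell lines are at 49.4% and 24.9% on the right.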

How the data were processed

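Total RNA of ovarian cancer lines was sequenced as cDNA ligated to nanopore adapters, with end repair lengthened to 30 min, per the labels' protocols. The submitters' processing notes name minimap2 2.24-r1122 and GRCh38. The quantifier was not given in the sources used here, nor were the annotation release and the use of strand in counting. The authors deposited an estimated count and a TPM value per transcript. The deposited TPM differed from CPM (counts per 1000000 counts of the library) by at most 5.6e-11, so it was not divided by length and was not used. Of 99493 transcripts 99362 are in GENCODE 29. Estimated counts, which lost 0% to rounding, were summed per gene identifier (57110, of which 722 join several genes and hold 5.14% to 5.96% of the counts of the 5 libraries) and scaled to CPM. A floor of 3 counts corresponds to 1.18 to 1.73 CPM in a library.

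Genes were filtered with filterByExpr, which was given the sides as groups, so counts in the clear cell lines alone can let a gene pass. They were tested with edgeR 4.0.16 (TMM, quasi-likelihood, Benjamini-Hochberg, threshold 0.05) in R 4.3.3. Transcript usage was tested with edgeR's diffSpliceDGE. DESeq2 1.42.0 and limma 3.58.1 were alternatives, and other steps used Python 3.11.15 with pandas 2.3.3, numpy 2.4.6 and scipy 1.17.1. Intervals of ratios are exact and those of shares are Wilson intervals (95%). Both, like the floors, cover counting error only. Nothing in the labels says that libraries came from separate cultures, so p-values measure the spread between lines. On simulated counts of the same design, the gene test recovered 0% of 200 genes changed by 2 on the log2 scale (10412 genes) and 64.5% of 200 changed by 4 (10418 genes). The usage test recovered 0% of switches from 80% to 20% of a pair and 92.5% of those from 95% to 5% (2900 genes). Of 135 and 191 calls at the larger changes, 6 and 6 were false. Unchanged genes had the same mean in every simulated line, so these shares need not carry over to the data. There CDH6, with a log2 difference of -13.18, was not called.

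The members and gene lists were chosen with earlier results of these data known. The genes named are the 12 protein-coding and 2 noncoding genes per direction with the smallest edgeR p among those whose sides do not overlap, since none passed the threshold, up to 4 members per list by the same order, and the detected clear cell, serous and Mullerian markers. The transcripts named are the 12 per direction with the widest gap, and the 5 genes with the smallest usage p. The share minimum of 5% and the alternatives for list counts were added after the data were seen. Some genes and transcripts that fall under these rules are not reported here. Other genes given with values were chosen after their values were seen. CLTRN was matched under its older symbol TMEM27. SK-OV-3 and IGROV-1 were left out of the comparison, and MinION libraries were not used.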

Additional observations from a re-analysis of the deposited data

How the results depend on the processing

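edgeR's 0 calls in either direction held with DESeq2 size factors, library totals, mitochondrial ribosomal RNA left out, a mean of at least 10 CPM, limma-voom and each line left out. With no filter 62 genes were called higher and 55 lower, with DESeq2 224 and 322, and with all 8 PromethION libraries 29 and 27. Genes without overlap above numbered 255 with the nearest lines at least 2-fold apart and 1488 to 2296 when a line was left out (1094 with all 5). Those below numbered 576 and 2798 to 3922 (2229 with all 5). Usage calls numbered 0 to 1 when a line was left out. Transcript shares without overlap numbered 2246 for genes of at least 20 counts, 666 at 100 counts and 1852 to 2774 with a line left out (1254 at 50 counts). Those at least 10 points apart numbered 212, 41 and 152 to 300 (98 at 50 counts). For DESeq2 the cause was not tested, and the other settings change the genes, the lines or the margin a count includes.

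Of 70 named genes under 13 alternatives each, 782 values kept their side of the threshold and 109 passed it (51 with DESeq2, 34 with no filter, 24 with all 8 libraries), and 0 reversed. The other 19 values are missing because the gene did not pass the filter of that setting. Of the list counts 150 stayed within 1.5 times and 46 moved. Of the shares 8 moved by more than the spread between lines and 136 did not. No paired analysis was possible because the lines compared share no replicate numbers from the labels. A single library per line and a residual spread of 58.9% limit what the tests can call.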

Other observations

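Presence against absence set a small share of the 10869 tested genes apart. In 79 tested genes neither clear cell line had a count while all 3 serous-like lines had at least 10. In 13 no serous-like line had a count while both clear cell lines had at least 10. The 79 ask for no count in both clear cell libraries, whose totals were lower, and the 13 in all 3 serous-like libraries. The numbers 79 and 13 are therefore not like for like, and no difference between the sides is read from them.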
